A study of Mus musculus with 26 samples.

Results

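Matrix proteases and their inhibitors were read here as every protein-coding gene of the GENCODE M21 annotation with a symbol made of Mmp, Timp, Adamts or Adamtsl and a number. The rule used names only and gave 50 of 21951 protein-coding genes. They were 22 Mmp genes, 4 Timp genes, 19 Adamts genes and 5 Adamtsl genes. Mmp1a is annotated as a polymorphic pseudogene and was not counted.

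The data came from female mouse embryonic fibroblasts (MEFs), connective tissue cells kept in culture with calf serum. WT MEFs carried no targeted change. ATRXΔRBR MEFs were 1 clone in which Cas9 and a pair of guide RNAs had removed, in frame, the RNA binding region (RBR) of endogenous ATRX, a chromatin remodeler, with a short puromycin selection of transfected cells. MEFs labelled ATRX KD carried an shRNA against ATRX and had been selected with puromycin. Each group had 2 RNA-Seq libraries, and 2 CUT&RUN libraries, a method that releases the DNA bound by an antibody's target, for EZH2 and for H3K27me3, with 2 for ATRX in WT and ATRXΔRBR MEFs. Replicates were described as biological, without saying whether they came from separate clones or cultures, so p-values measure the spread between these libraries. Knockdown and the preparation of its libraries cannot be told apart. Nor can the RBR deletion and the choice of 1 clone.

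Matrix metalloproteinases (MMPs) are zinc-dependent enzymes that cut collagens and other proteins outside the cell. They are made as inactive precursors, and tissue inhibitors of metalloproteinases (TIMPs) bind and block their active forms. ADAMTS proteases are secreted relatives that mature procollagen or cut proteoglycans such as aggrecan and versican, while ADAMTS-like proteins resemble them but lack the protease domain. Fibroblasts are a main source of both kinds of enzyme. EZH2 is the catalytic subunit of the Polycomb repressive complex PRC2, which places H3K27me3, a histone mark found at silent genes.

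RNA-Seq libraries held 9051693 to 21723647 estimated counts, of which 0.197% to 0.274% fell on these genes. Atrx RNA, the target of the shRNA, was at 633 and 434 CPM, which is counts scaled to library size, in WT and at 411 and 551 in the libraries labelled ATRX KD. Those ranges overlapped (log2 fold change -0.15 ± 0.21 SE, edgeR adjusted p = 0.605). On the TPM scale, which also divides by transcript length, Atrx was at 233 and 141 in WT and higher, at 331 and 512, with that label. The RNA therefore gave no check of the label, ATRX protein is not measured in these files, and directions are given for the libraries labelled ATRX KD. Of 12 fibroblast markers 7 were above 1 TPM in every library, while Thy1 was listed at 0 in all 6. Lum was at 0 to 0.09 TPM and Postn at 0.05 to 1.5. Col3a1 was at 28.1 and 32.2 TPM in WT and 0.36 and 0.75 in the libraries labelled ATRX KD, where Dcn was at 0. The 10 leukocyte markers summed to 10.1 to 16.9 TPM, with Adgre1, S100a9 and Elane at 0. Of these markers Cd68, at 4.55 to 12.1 TPM, Csf1r and Lyz2 were above 1 TPM in every library. The 4 neural markers summed to 41.8 to 49.0 TPM in WT, 23.2 to 23.5 in ATRXΔRBR and 3.45 to 4.92 in the libraries labelled ATRX KD. Most of it was Sox2 in WT, at 43.9 and 37.1 TPM, and in ATRXΔRBR, at 18.7 and 17.5. Tubb3 was at 1.48 to 4.5 TPM and Sox10 at 0 throughout, and the part of these markers in the results was not tested. The ATRX KD peak lists were the shortest, with 5376 and 7093 EZH2 peaks against 22316 and 18351 in WT, and 7241 and 6336 H3K27me3 peaks against 36011 and 38832.

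Inhibitors stood at the top of the family in WT MEFs. On the TPM scale, which divides by transcript length and allows genes to be set side by side, Timp2 was at 388 and 450, Timp1 at 341 and 284, and Timp3 at 226 and 274. Mmp2, the gelatinase that cuts denatured and basement membrane collagen, was at 293 and 249 TPM. The WT values of Timp1, Mmp2 and Timp3 overlapped, so their order was not resolved, and Timp2 was above all 3 in both libraries. Next came Mmp14, the membrane-anchored collagenase that activates pro-MMP2, at 142 and 125 TPM, and Mmp11 (stromelysin 3) at 81.3 and 65.5 TPM. The 2 WT values of these genes did not overlap with each other or with those above. Adamts1, a proteoglycanase, followed at 45.3 and 68.6 TPM, overlapping Mmp11. Adamtsl5 at 25.6 and 27, Adamtsl4 at 18.4 and 16.0 and Adamtsl3 at 11.3 and 18.3 TPM completed the 10 highest, and the last pair overlapped.

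Outside this upper tier the family was weakly expressed. From 21 to 24 of the 50 genes reached 1 TPM in a given library, and 19 did so in all 6. At the other end, 20 genes had 10 counts or fewer over the 6 libraries together, and 7 of these had none. Timp4, the inhibitor typical of heart and brain, was among the 20. So were Mmp8 (neutrophil collagenase) and Mmp10, Mmp12, Mmp20 and Mmp7 of the Mmp cluster on chromosome 9. Timp1, Timp3 and Timp4 overlap Syn1, Syn3 and Syn2 on the opposite strand, and Timp2 overlaps Cep295nl on its own strand. The library kit kept strand, but the counting setting for strand is not given in the sources used here.

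**Figure D1:**
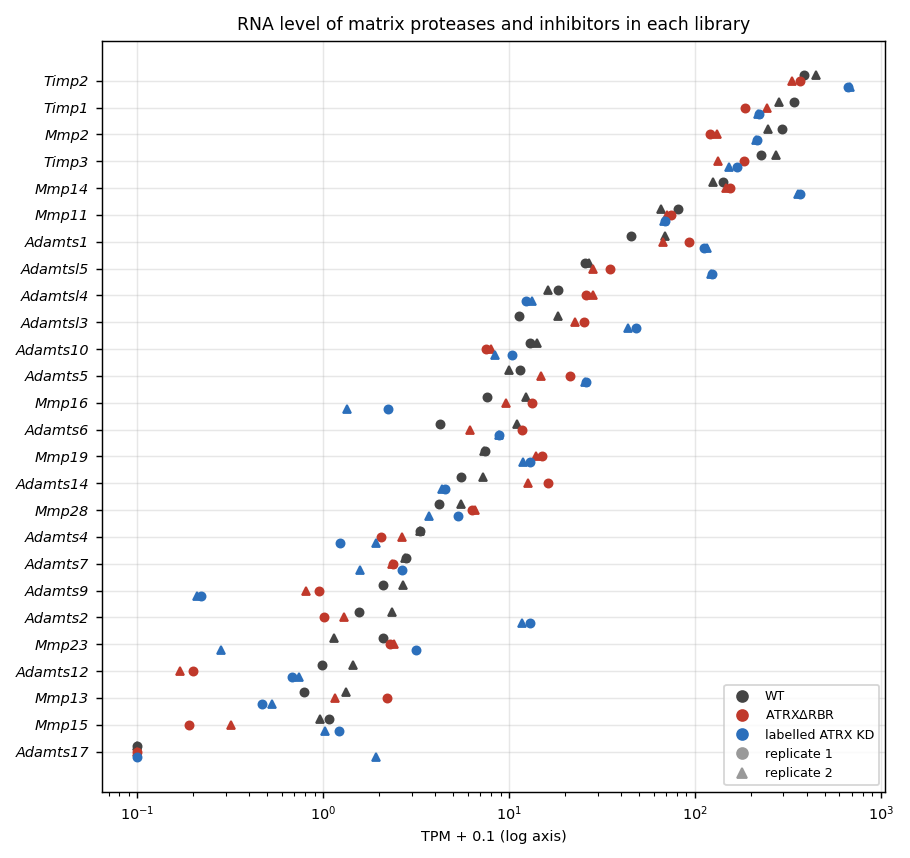
RNA level of the 26 genes that reached 1 TPM in at least 1 library, on a log axis of TPM + 0.1, with 1 point per library, coloured by group and shaped by replicate. Mmp14, Adamts2 and Adamtsl5 sit to the right and Mmp16 and Adamts9 to the left in both libraries labelled ATRX KD, while Adamts12 sits lowest in both ATRXΔRBR libraries.

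The clone with the ATRX RBR deleted was compared with WT first. Effects of the deletion and of the choice of clone cannot be told apart. The paper also places the binding motif for the protein HP1 within the RBR, so the comparison is not one of RNA binding alone. Proteases moved in both directions and no Timp gene passed the edgeR test, with Timp3 close to the threshold (edgeR adjusted p = 0.0588). In RNA from whole cultures, a change in the number of cells that make a transcript and in the RNA per cell cannot be told apart. Of the 50 genes, 29 had enough counts to be tested and 7 passed an edgeR adjusted p of 0.05, 2 higher and 5 lower. Over all 16334 genes tested 6.85% passed, 2.79% higher and 4.07% lower. On the TPM scale 1 member passed, Mmp2, where 2.96% of all genes did, so the other 6 calls rest on the count scale. The median log2 fold change of the 29 genes was 0.20, against -0.02 over all genes tested.

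Adamts12, a secreted protease that cuts cartilage oligomeric matrix protein, showed the widest loss. Its estimated counts were 54 and 68 in WT, against 4 and 4 in ATRXΔRBR, and 20 and 54 in the libraries labelled ATRX KD. Both ATRXΔRBR libraries were far below both WT libraries. The log2 fold change was -3.78 ± 0.46 (SE, n = 2 per group, edgeR adjusted p = 0.00276). Mmp15, a membrane-type MMP, had counts of 36 and 26 in WT, against 2 and 8 in ATRXΔRBR and 23 and 46 in the libraries labelled ATRX KD. Here only the ATRXΔRBR libraries stood apart from WT, by a log2 fold change of -2.52 ± 0.54 (edgeR adjusted p = 0.0301), and DESeq2 did not call this gene. DESeq2 also gave 7 calls, 1 of them a named gene that edgeR did not call.

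Among the proteoglycanases Adamts9, which cuts versican, had counts of 85 and 93 in WT, against 25 and 27 in ATRXΔRBR and 4 and 5 in the libraries labelled ATRX KD. The groups did not overlap and ATRXΔRBR lay between the others. Its log2 fold change in ATRXΔRBR was -1.64 ± 0.31 (edgeR adjusted p = 0.0196), a call lost without ATRXΔRBR replicate 2. The other 3 tested proteoglycanases, Adamts1, Adamts4 and Adamts5, did not pass, with log2 fold changes from -0.54 to 0.68. Adamts10, which acts on fibrillin microfibrils, was at 12.8 and 14.0 TPM in WT and 7.4 and 7.87 TPM in ATRXΔRBR. Both ATRXΔRBR values were below both WT values, with a log2 fold change of -1.05 ± 0.21 on the count scale (edgeR adjusted p = 0.0256).

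Mmp2 was the most abundant member that fell. It was at 293 and 249 TPM in WT, against 120 and 132 in ATRXΔRBR and 215 and 214 in the libraries labelled ATRX KD. WT and ATRXΔRBR did not overlap, and the log2 fold change was -1.07 ± 0.16 (edgeR adjusted p = 0.00769). It was the single gene of the family called under every one of the 14 alternative settings. Mmp14, which activates its precursor, was at 154 and 148 TPM in ATRXΔRBR against 142 and 125 in WT, a log2 fold change of 0.12 ± 0.18 that did not pass (edgeR adjusted p = 0.767). The other gelatinase, Mmp9, stayed at 4 to 11 counts in WT and ATRXΔRBR.

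Only Adamts14 and Mmp19 rose. Adamts14, a procollagen N-proteinase that trims fibrillar procollagens, was at 5.43 and 7.17 TPM in WT and 16.0 and 12.5 TPM in ATRXΔRBR, with no overlap. Its log2 fold change was 1.12 ± 0.20 (edgeR adjusted p = 0.0138). Mmp19, a secreted MMP of broad specificity, was at 7.36 and 7.26 TPM in WT and 15 and 13.9 TPM in ATRXΔRBR. The groups were apart, with a log2 fold change of 0.92 ± 0.19 (edgeR adjusted p = 0.0278), but the call was lost under 6 of 14 alternatives, among them the fits without WT replicate 2 and without ATRXΔRBR replicate 2. Mmp19 overlaps Tmem198b on the opposite strand.

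None of the 3 tested inhibitors passed in ATRXΔRBR by edgeR, although 2 had an unadjusted p under 0.05. Timp3, which is held in the matrix and also blocks ADAMTS proteases, was at 185 and 133 TPM against 226 and 274 in WT. Both values were below WT, with a log2 fold change of -0.71 ± 0.18 (edgeR adjusted p = 0.0588). Timp1 was at 186 and 244 TPM against 341 and 284, with a log2 fold change of -0.59 ± 0.23 (edgeR adjusted p = 0.202), and Timp2 at 368 and 334 TPM against 388 and 450, with -0.24 ± 0.15 (edgeR adjusted p = 0.441).

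**Figure D2:**
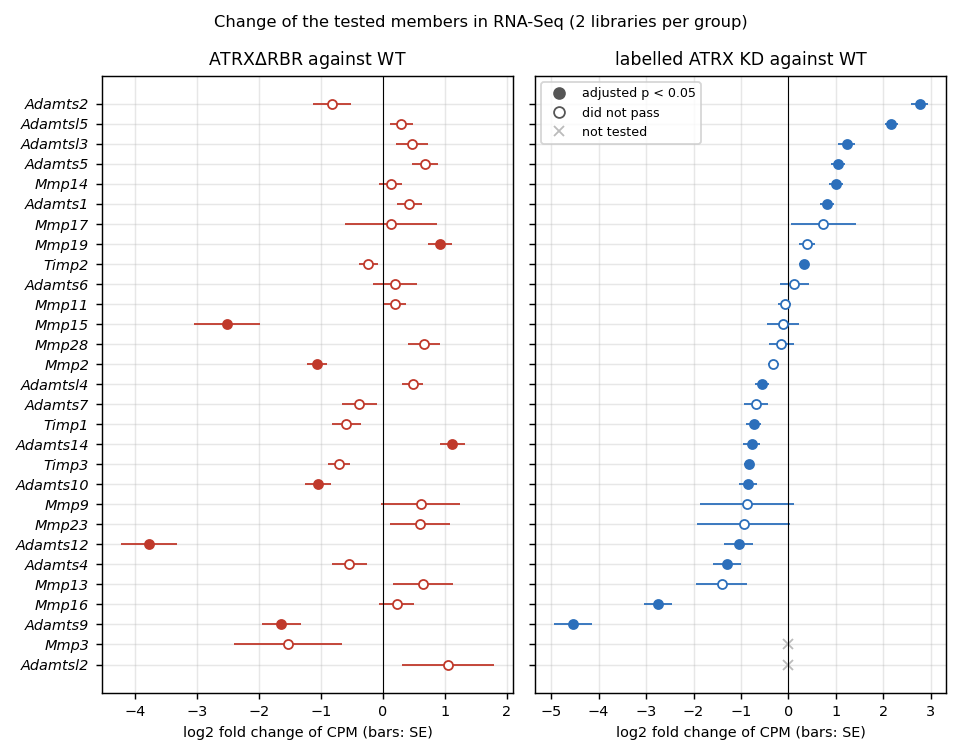
Log2 fold change of CPM with its SE for the 29 members tested in at least 1 comparison with WT, ATRXΔRBR on the left and libraries labelled ATRX KD on the right. Filled points passed an edgeR adjusted p of 0.05, 7 on the left and 16 on the right, open points did not, and crosses mark genes with too few counts to test.

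The libraries labelled ATRX KD were compared with WT next, to set a knockdown of ATRX beside the deletion. Here 16 of 27 tested genes passed, 7 higher and 9 lower, where 33.0% of all 16785 genes tested passed, 15.2% higher and 17.8% lower. The median of the 27 log2 fold changes was -0.32, against -0.02 over all genes tested. On the TPM scale the median of all genes moved to 0.17. There 11 members passed, 7 higher and 4 lower, where 24.5% of all genes did. Over all genes the share of calls that were higher went from 46.1% to 64.4%. Estimated lengths of transcripts, by which TPM is divided, differed between these libraries.

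The procollagen N-proteinase Adamts2 rose most. Its estimated counts were 63 and 55 in WT, against 24 and 38 in ATRXΔRBR and 282 and 720 in the libraries labelled ATRX KD, or 12.9 and 11.7 TPM against 1.45 and 2.25 in WT. Only the libraries labelled ATRX KD were high, with a log2 fold change of 2.76 ± 0.17 (edgeR adjusted p = 0.000147). Its relative Adamts14 went the other way, to 4.44 and 4.24 TPM against 5.43 and 7.17 in WT, a log2 fold change of -0.78 ± 0.18 (edgeR adjusted p = 0.0163). That call was lost without either of the libraries labelled ATRX KD. Adamts3, the other N-proteinase, was not tested for lack of counts.

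All 3 tested ADAMTS-like genes passed. Adamtsl5, a microfibril-associated protein, was at 25.6 and 27 TPM in WT, against 34.9 and 28.2 in ATRXΔRBR and 124 and 122 in the libraries labelled ATRX KD. The last pair lay far above the rest, with a log2 fold change of 2.17 ± 0.13 (edgeR adjusted p = 0.000132). Adamtsl3 rose as well, to 48.0 and 43.5 TPM against 11.3 and 18.3 in WT (log2 fold change 1.22 ± 0.19, edgeR adjusted p = 0.00358). Adamtsl4, which binds fibrillin, fell by 0.55 on the log2 scale (SE 0.15, edgeR adjusted p = 0.0282), and its TPM of 12.2 and 13.2 lay below 18.4 and 16.0 in WT, but the call was lost under 5 of 13 alternatives, among them without either library labelled ATRX KD. Adamtsl1 had 4 and 6 counts in WT and 0 in each of the other 4 libraries, was too low to test, and overlaps Sh3gl2 on the same strand.

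Membrane-type MMPs split. Mmp14 was at 366 and 359 TPM in the libraries labelled ATRX KD against 142 and 125 in WT. Every value of the first group was above every value of the other, and the log2 fold change was 1.00 ± 0.14 (edgeR adjusted p = 0.00267). Mmp16, which can also activate pro-MMP2, was at 2.13 and 1.24 TPM against 7.52 and 12.2 in WT. It fell by 2.75 on the log2 scale (SE 0.29, edgeR adjusted p = 0.000871). Mmp15 did not pass at -0.11 ± 0.34, and neither did Mmp2, whose precursor these enzymes activate, at -0.32 ± 0.11 (edgeR adjusted p = 0.826 and 0.0677).

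All 4 tested proteoglycanases passed, 2 up and 2 down. Adamts5, the main aggrecanase of mouse cartilage, was at 25.9 and 25.5 TPM against 11.3 and 9.91 in WT, with a log2 fold change of 1.05 ± 0.15 (edgeR adjusted p = 0.00274). Adamts1 lies beside Adamts5 on chromosome 16 and was at 111 and 116 TPM against 45.3 and 68.6, with 0.82 ± 0.15 (edgeR adjusted p = 0.00675). Both were higher in each library labelled ATRX KD than in any WT library. In contrast Adamts9, at the 4 and 5 counts given above, had a log2 fold change of -4.54 ± 0.41 (edgeR adjusted p = 0.000523), and Adamts4, at 20 and 77 counts against 100 and 82, one of -1.29 ± 0.30 (edgeR adjusted p = 0.0160). The Adamts4 call was lost without the first library labelled ATRX KD. Among the other ADAMTS genes Adamts12 (-1.05 ± 0.31, edgeR adjusted p = 0.0367) and Adamts10 (-0.85 ± 0.18, edgeR adjusted p = 0.0117) fell. The Adamts12 call was lost under 6 of 13 alternatives and that of Adamts10 under 4, both among them without the first library labelled ATRX KD.

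The inhibitors did not move together. Timp3 was at 168 and 153 TPM in the libraries labelled ATRX KD against 226 and 274 in WT, and fell by 0.83 on the log2 scale (SE 0.11, edgeR adjusted p = 0.00211). Timp1, encoded on the X chromosome, was at 222 and 219 TPM against 341 and 284, and fell by 0.73 (SE 0.16, edgeR adjusted p = 0.0136). For both genes the groups did not overlap. Timp2 was at 669 and 683 TPM against 388 and 450 and passed in the opposite direction, at 0.33 ± 0.10 on the count scale (edgeR adjusted p = 0.0485), a call lost under 7 of 13 alternatives. The Timp1 call was lost without either library labelled ATRX KD.

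The libraries labelled ATRX KD were also compared with ATRXΔRBR directly, a comparison that shares libraries with both of the others. Of 28 tested genes 16 passed, 8 higher and 8 lower, where 34.7% of all 16520 genes tested passed, 16.2% higher and 18.5% lower. On the TPM scale 11 members passed, 7 higher and 4 lower, where 27.1% of all genes did. Adamts2 had the lowest adjusted p of the family here, with a log2 fold change of 3.56 ± 0.19 (edgeR adjusted p = 4.17e-06). Adamts12 was higher by 2.71 ± 0.49 (edgeR adjusted p = 0.00308) and Mmp15 by 2.39 ± 0.52 (edgeR adjusted p = 0.00806), so both were lowest in ATRXΔRBR. Mmp2 was higher by 0.74 ± 0.12 (edgeR adjusted p = 0.00187) and Timp2 by 0.55 ± 0.11 (edgeR adjusted p = 0.00526), a call lost without either library labelled ATRX KD. Adamtsl5, Mmp14 and Adamtsl3 were the remaining 3 higher genes, with 1.85 ± 0.14, 0.87 ± 0.12 and 0.75 ± 0.17. Timp1 and Timp3 did not pass here, at -0.15 ± 0.17 and -0.14 ± 0.14 (edgeR adjusted p = 0.534 and 0.484).

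Adamts14 was the member called in both comparisons with WT in opposite directions, and its difference between the 2 altered groups was -1.91 ± 0.17 (edgeR adjusted p = 5.83e-05). Mmp16 was lower by 2.99 on the log2 scale (SE 0.26) and Adamts9 by 2.91 (SE 0.54), at edgeR adjusted p values of 5.26e-05 and 0.00349. Mmp13, a collagenase, had 25 and 20 counts in ATRXΔRBR and 4 and 11 in the libraries labelled ATRX KD, with a log2 fold change of -2.06 ± 0.52 (edgeR adjusted p = 0.0153), and its call was lost without ATRXΔRBR replicate 1. Adamtsl4 (-1.04 ± 0.14), Mmp28 (-0.83 ± 0.23), Mmp19 (-0.54 ± 0.15) and Adamtsl2 (-2.81 ± 0.94) were the other lower genes. The Mmp19 call was lost under 6 of 13 alternatives, among them DESeq2 and without either library labelled ATRX KD, and that of Mmp28 under 5, among them DESeq2 and without the second of those libraries. Adamtsl2 had at most 8 counts in any library and kept its call in 2 of 10 alternatives.

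Chromatin at the starts of these genes was read in WT first. A peak was counted at the transcription start site (TSS) when it reached within 2 kb of it. EZH2 lay at the TSS of 19 members in both WT lists, 38.0% against 44.8% of all protein-coding genes. H3K27me3 lay at 14, 28% against 14.7%. EZH2 together with H3K27me3 marked 11 members, 22% against 7.53% of protein-coding genes, with a median WT level of 0.0950 TPM. In that group 3 genes were at 1 TPM or more, Adamtsl5, Adamts9 and Adamts2. EZH2 without H3K27me3 marked 8 members, 16.0% against 36.6% of protein-coding genes. They ranged from 2.67 to 419 TPM with a median of 13.9 and included Timp2, Mmp14 and Adamts1. Over all protein-coding genes the WT medians differed in the same direction, 0.105 TPM with both peaks and 35.4 TPM with EZH2 without H3K27me3. Neither was found at 26 members, 52.0% against 39.4% of protein-coding genes. They ran from the abundant Mmp2, Timp3 and Mmp11 to genes without a read, with a median of 0.165 TPM.

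**Figure D3:**
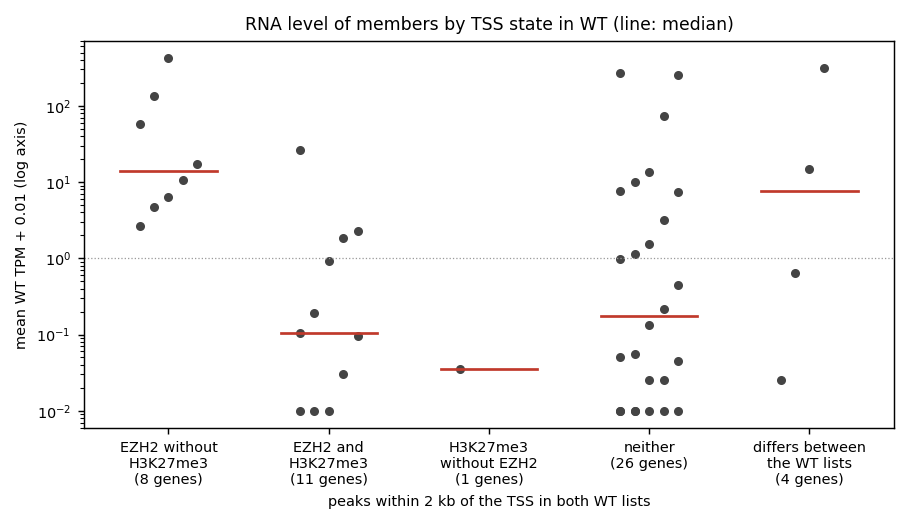
Mean WT level of each of the 50 members on a log axis of TPM + 0.01, grouped by which peaks lay within 2 kb of the TSS in both WT lists, with a line at the median. All 8 genes with EZH2 and no H3K27me3 lie above the dotted line at 1 TPM, while 3 of 11 genes with both do. Among protein-coding genes of these classes 94.5% and 27.8% were at 1 TPM or more.

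Promoter sequence was set beside these classes. RefSeq promoters of GRCm38.p6, 250 bases before to 50 after the start, were found for 35 of the 50 genes. The 8 matched members with EZH2 and H3K27me3 had a median of 27 CpG dinucleotides in 300 bases, and the 6 with EZH2 without H3K27me3 had 22. The 18 matched members with neither had 2.5, against 14 over 20150 promoters of protein-coding genes. Of those 18, 9 belong to the Mmp cluster on chromosome 9, and the other 9 had a median of 19. The RefSeq start is not always the GENCODE start used for peaks, and it lay 3994 bp from it in Mmp11 and 61068 bp in Adamts20. Promoters of Adamts2 and Adamtsl5, whose RNA rose in the libraries labelled ATRX KD, are printed beside that of Adamts12. In WT Adamts2 and Adamtsl5 had both peaks within 2 kb of the TSS, and Adamts12 had neither. The H3K27me3 peaks of Adamtsl5 lay upstream of the sequence printed and did not reach it. Capitals mark each CpG, of which there are 41, 29 and 7.
Adamts2, chr11:50601835-50602134, plus strand: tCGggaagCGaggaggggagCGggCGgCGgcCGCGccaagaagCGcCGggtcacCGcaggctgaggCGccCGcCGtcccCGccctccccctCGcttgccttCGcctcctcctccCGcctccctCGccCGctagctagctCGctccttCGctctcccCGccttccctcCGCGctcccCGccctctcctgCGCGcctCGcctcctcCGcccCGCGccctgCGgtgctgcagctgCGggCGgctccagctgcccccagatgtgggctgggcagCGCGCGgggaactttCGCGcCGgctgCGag
Adamtsl5, chr10:80348399-80348698, minus strand: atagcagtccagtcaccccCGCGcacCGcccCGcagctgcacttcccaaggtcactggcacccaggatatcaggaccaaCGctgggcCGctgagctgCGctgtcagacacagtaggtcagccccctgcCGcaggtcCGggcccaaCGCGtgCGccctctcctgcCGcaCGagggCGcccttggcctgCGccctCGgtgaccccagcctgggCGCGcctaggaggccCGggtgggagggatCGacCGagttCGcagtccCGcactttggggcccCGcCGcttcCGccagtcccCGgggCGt
Adamts12, chr15:11064523-11064822, plus strand: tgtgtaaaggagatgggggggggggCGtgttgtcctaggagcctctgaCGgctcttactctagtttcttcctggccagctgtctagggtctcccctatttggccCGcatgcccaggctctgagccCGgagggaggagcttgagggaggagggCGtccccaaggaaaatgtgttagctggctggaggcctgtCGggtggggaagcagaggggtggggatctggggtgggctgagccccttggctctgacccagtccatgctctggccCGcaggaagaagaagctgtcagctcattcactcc

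In ATRXΔRBR, H3K27me3 was found at fewer member starts. The lists held 14 and 14 such genes in WT and 10 and 9 in ATRXΔRBR, and the groups did not overlap, while the lists held the mark at 15.6% and 16.4% of protein-coding genes in WT and 16.2% and 14.6% in ATRXΔRBR. The mean difference was -4.5 members (exact two-sided permutation p = 0.33, the smallest that 2 against 2 lists allow). With a window of 1 kb the lists held 11 and 12 in WT and 9 and 8 in ATRXΔRBR, a difference of -3.0. By peak midpoints it was -5.5. Both ATRXΔRBR lists lacked the mark at 6 genes that had it in both WT lists, Adamts2, Adamts3, Adamts9, Adamts15, Adamtsl5 and Mmp9. These were 12% of the members, against 4.30% of protein-coding genes. Set against the genes marked in both WT lists, 42.9% of those in the family and 29.2% of all such protein-coding genes had lost the mark. At Adamts2 the WT peaks were 6081 and 7286 bp wide and spanned the TSS, with fold enrichments of 4.95 and 5.29. At Adamtsl5 they were 11283 and 11305 bp wide and lay upstream, from -13086 and -13094 bp to -1804 and -1790 bp relative to the TSS. The Adamts9 peak of WT replicate 1 ended at -1174 bp. The losses at Adamtsl5 and Adamts9 therefore depend on the 2 kb window.

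RNA of these 6 genes did not follow one direction. Adamts9 fell in ATRXΔRBR, while Adamts2, Adamtsl5 and Mmp9 did not pass, at -0.82 ± 0.30, 0.30 ± 0.19 and 0.61 ± 0.64, and Adamts3 and Adamts15 were too low to test. EZH2 remained at the TSS of Adamts2, Adamts9 and Adamtsl5 in both ATRXΔRBR lists. The reverse change, a mark present in both ATRXΔRBR lists and no WT list, occurred at Adamts10, against 3.63% of protein-coding genes. Its peaks were 29992 and 11995 bp wide and came in from upstream, and the second ended at -1482 bp from the TSS. Adamts10 was among the genes whose RNA fell. The mark was kept at 8 genes, Adamts8, Adamts13, Adamts16, Adamts17, Mmp15, Mmp17, Mmp24 and Mmp25.

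EZH2 at member starts was less even between the ATRXΔRBR lists. They held 22 and 12 genes against 20 and 22 in WT (exact two-sided permutation p = 1.00), where the shares of protein-coding genes were 49.2% and 35.0% against 50.5% and 46.8%, and the second list had 11408 peaks where the first had 22418. Mmp25 alone had EZH2 in both WT lists and neither ATRXΔRBR list, against 1.19% of protein-coding genes, and no start gained EZH2 in both (0.00%). In that gene H3K27me3 was present at the TSS in all 6 lists.

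With the label ATRX KD, EZH2 was found at 6 and 5 member starts against 20 and 22 in WT, with no overlap (exact two-sided permutation p = 0.33, the smallest possible). Over protein-coding genes the shares in these lists were 19.4% and 24.8%. EZH2 was absent from both lists at 13 members that had it in both WT lists, 26.0% of the family against 18.3% of protein-coding genes. Among these 13, Adamts1, Adamts2, Adamts5, Adamtsl5, Mmp14 and Timp2 had RNA that rose and Adamts14 and Adamtsl4 RNA that fell, while Mmp28 did not pass and Adamts3, Adamts16, Mmp24 and Mmp25 were not tested. Adamts8, Adamts9, Adamts17, Mmp15 and Mmp17 kept EZH2, and no member gained it (0.173%). How far the shorter lists account for the absent peaks was not tested.

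H3K27me3 was at 9 and 8 member starts with the label ATRX KD, again apart from the 14 and 14 of WT (exact two-sided permutation p = 0.33). At a q-value of 0.01 or less the counts were 3 and 2 against 11 and 13 in WT. The shares that follow were not computed at that q-value. Of the genes marked in both WT lists, 28.6% in the family and 58.8% among protein-coding genes had no peak in either list, and 7 of 14 in the family against 26.1% had one in both. As shares of all genes these losses were 8% and 8.64%, and no member gained the mark (0.369%). The 7 kept were Adamts2, Adamts8, Mmp9, Mmp15, Mmp17, Mmp24 and Mmp25. Adamts2 thus carried H3K27me3 peaks of 649 and 414 bp near its TSS in the libraries where its RNA was highest, in place of 6081 and 7286 bp in WT. Adamts3, Adamts15, Adamts16 and Adamtsl5 had lost the mark in both.

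**Figure D4:**
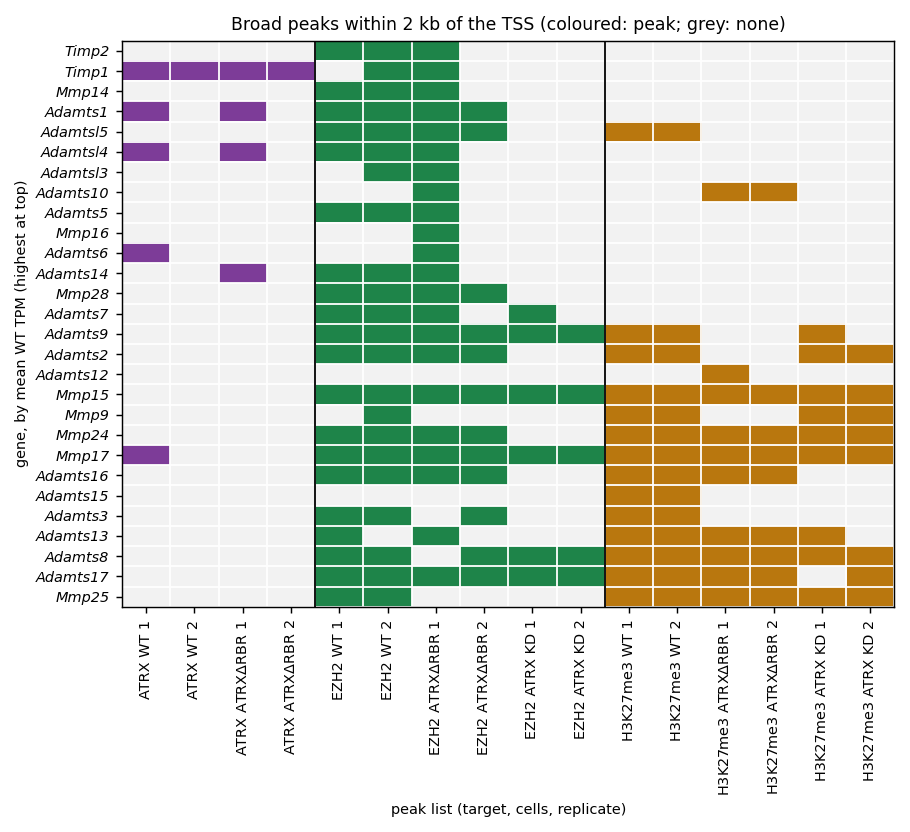
Presence of ATRX, EZH2 and H3K27me3 broad peaks within 2 kb of the TSS in each of 16 lists (columns), for 28 members with any such peak, ordered by WT TPM. Coloured cells mark a peak, EZH2 columns with the label ATRX KD hold 6 and 5 coloured cells, and H3K27me3 columns of ATRXΔRBR hold 10 and 9.

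Beyond the starts, H3K27me3 spread over some members and left others in ATRXΔRBR. The share of the whole gene under H3K27me3 peaks was above both WT lists in both ATRXΔRBR lists for 7 members and below both for 7, while 9.84% and 9.56% of protein-coding genes did so. Adamts12, on chr15:11064790-11349231, had 0% and 0.248% of its 284 kb covered in WT, against 18.6% and 17.6% in ATRXΔRBR and 0% and 0.125% with the label ATRX KD. Other lists held at most 1 peak there and ATRXΔRBR held 29 and 24 separate peaks of up to 12909 and 12987 bp, and its RNA was lowest in the same cells. A gain this large or larger was found in 1114 protein-coding genes (5.07%). The 500 kb before the gene rose too, from 1.84% and 2.63% to 21.3% and 20.4%, and the 500 kb after it from 0% to 6.72% and 7.12%.

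Adamtsl1, a gene of 914 kb on chromosome 4, went from 8.97% and 11.4% in WT to 24.2% and 18.7% in ATRXΔRBR and to 0.166% and 0% with the label ATRX KD. Its few reads, 4 and 6 in WT, were absent from both altered groups, whose coverage had moved in opposite directions. Adamts13, the protease of von Willebrand factor, went from 17.1% and 29.7% to 51.7% and 58.4%, and Mmp25 from 35.3% and 37.2% to 63.4% and 52.8%. Adamts17, Mmp20 and Mmp7 were the remaining gains. The losses included Adamts8, from 54.6% and 52.9% to 11.9% and 0%, Mmp17, from 43.7% and 47.4% to 17.9% and 18.4%, and Mmp9, from 30.3% and 27.2% to 0% in both. In Adamts2, Adamts20, Adamtsl2 and Mmp15 the share fell from at most 14.8%. With the label ATRX KD no member gained (0.784% of protein-coding genes did) and 13 lost (17.3%).

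The Mmp cluster on chromosome 9 was examined as a block. It runs from Mmp13 through Mmp12, Mmp1b, Mmp3, Mmp10, Mmp8, Mmp27 and Mmp20 to Mmp7, at chr9:7272514-7699585, and holds the collagenases, the stromelysins Mmp3 and Mmp10, the elastase Mmp12, matrilysin (Mmp7) and the enamel protease Mmp20. RNA was sparse. Mmp13 led with 13 and 19 counts in WT, against 25 and 20 in ATRXΔRBR and 4 and 11 with the label ATRX KD, followed by Mmp3 with 5 and 5, 2 and 1, and 0 and 0. Mmp13 did not pass in either comparison with WT, and Mmp3 could be tested only in ATRXΔRBR, where it did not pass.

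Within its 427072 bases, H3K27me3 peaks covered 0% and 0.0642% in WT, against 5.75% and 5.52% in ATRXΔRBR and 0.527% and 0.229% with the label ATRX KD. Both ATRXΔRBR lists were above the other 4 (difference from WT 5.60 percentage points, exact two-sided permutation p = 0.33, the smallest possible), and at a q-value of 0.01 or less the difference was 2.81 points. The 12 and 9 peaks lay at the far end, beyond 316 kb from the start of the cluster, over and around Mmp20 and Mmp7. Covered length over the whole of chromosome 9 was 8.49 and 7.16 Mb in ATRXΔRBR against 7.41 and 8.35 Mb in WT. The 500 kb after the cluster changed likewise, from 0.823% and 0.647% to 6.36% and 5.29%, while the 500 kb before it had no peak in any list. No start in the cluster had an ATRX, EZH2 or H3K27me3 peak in any list.

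**Figure D5:**
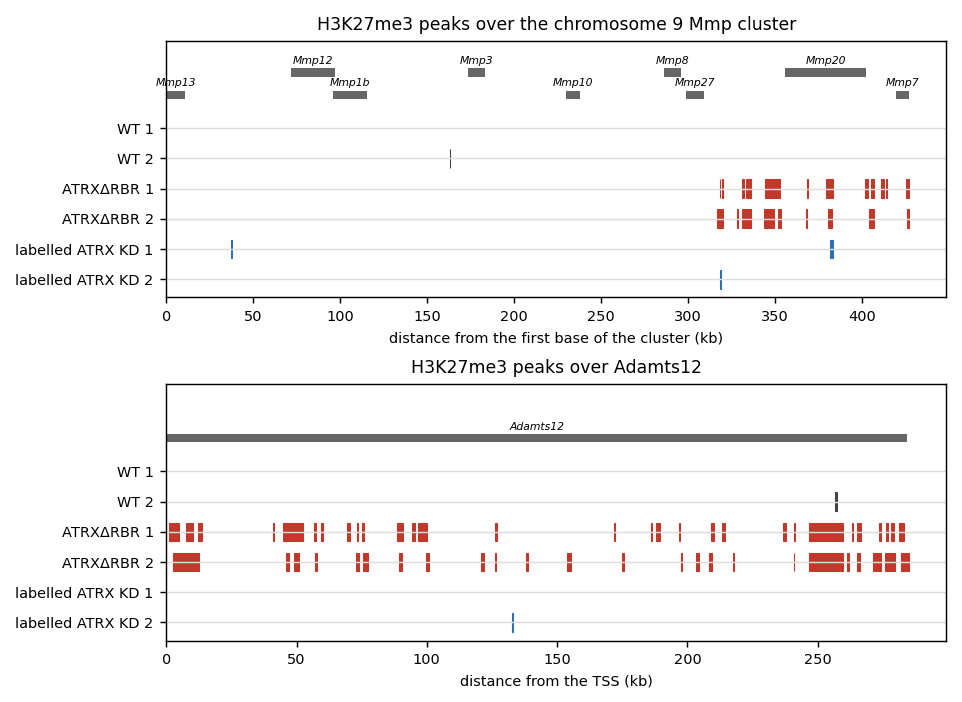
H3K27me3 peaks (blocks) in the 6 lists over the chromosome 9 Mmp cluster (top) and Adamts12 (bottom), with distance in kb from the first base of the cluster or from the TSS and genes in grey. ATRXΔRBR lists hold 12 and 9 peaks over the cluster, all to the right of 316 kb, and 29 and 24 over Adamts12, where WT lists hold 0 and 1 in each region.

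Promoters of the cluster had a sequence makeup of their own, shown here because these starts carried none of the 3 peaks. The AP-1 site TGANTCA, the element bound by Jun and Fos proteins, was found on either strand in 6 of the 9, and the TATA box letters TATAAA, also on either strand, in 7 of the 9. In Mmp8 they were on the reverse strand, and their distance from the start varied. Of all 20150 protein-coding promoters 7.0% held the first and 12.1% the second, and among the 35 matched members 17.1% and 28.6%. No matched member outside the cluster held the AP-1 letters. The median CpG number of the 9 was 1. In the 4 examples capitals mark the AP-1 letters and TATAAA, which do not overlap.
Mmp13, chr9:7272264-7272563, plus strand: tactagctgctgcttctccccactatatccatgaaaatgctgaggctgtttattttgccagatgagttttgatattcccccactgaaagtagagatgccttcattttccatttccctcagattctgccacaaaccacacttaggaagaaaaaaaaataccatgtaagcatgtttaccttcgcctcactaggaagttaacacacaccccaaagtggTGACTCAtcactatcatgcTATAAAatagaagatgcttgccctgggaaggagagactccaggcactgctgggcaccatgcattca
Mmp3, chr9:7445572-7445871, plus strand: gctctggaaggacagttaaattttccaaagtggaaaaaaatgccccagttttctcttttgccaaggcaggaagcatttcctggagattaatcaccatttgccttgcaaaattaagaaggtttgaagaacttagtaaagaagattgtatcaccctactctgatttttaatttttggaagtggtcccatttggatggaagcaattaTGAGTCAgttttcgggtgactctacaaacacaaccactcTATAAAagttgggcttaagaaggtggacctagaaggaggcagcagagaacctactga
Mmp7, chr9:7691840-7692139, plus strand: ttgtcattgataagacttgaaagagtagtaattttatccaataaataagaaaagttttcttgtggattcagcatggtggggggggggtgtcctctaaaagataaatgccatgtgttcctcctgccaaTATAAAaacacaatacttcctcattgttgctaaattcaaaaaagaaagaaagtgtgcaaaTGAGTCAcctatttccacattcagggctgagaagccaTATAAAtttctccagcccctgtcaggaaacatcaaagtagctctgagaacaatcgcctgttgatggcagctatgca
Mmp20, chr9:7627981-7628280, plus strand: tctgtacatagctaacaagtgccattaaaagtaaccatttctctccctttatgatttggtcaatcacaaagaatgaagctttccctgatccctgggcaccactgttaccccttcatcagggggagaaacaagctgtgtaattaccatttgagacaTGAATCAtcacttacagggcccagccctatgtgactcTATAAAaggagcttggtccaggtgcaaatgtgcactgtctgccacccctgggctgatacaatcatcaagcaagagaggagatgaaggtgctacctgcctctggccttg
In Mmp13 the AP-1 letters began at -35 and TATAAA at -16, counted from the RefSeq start as 0, and in Mmp3 they began at -46 and -7. Mmp7 had TATAAA at -123 and -26 around its AP-1 letters at -63.

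ATRX itself was seldom found at the starts of these genes. Its lists held 5 and 1 member starts in WT and 4 and 1 in ATRXΔRBR, or 10.0%, 2.0%, 8.0% and 2.0% of the family against 12%, 5.76%, 13.6% and 4.97% of protein-coding genes, and 44 of the 50 had none in any list. The groups overlapped (exact two-sided permutation p = 1.00). Timp1 was the exception with an ATRX peak near its TSS in all 4 lists, as 1.67% of protein-coding genes had, with fold enrichments from 3.74 to 5.50. With a window of 1 kb no member start had an ATRX peak in WT replicate 2, so that result depends on the 2 kb window. No start gained or lost ATRX in both lists, against 0.337% and 0.424% of protein-coding genes. In gene bodies, meaning the gene without peaks that touched the TSS window, ATRX was at 10 and 6 members in WT and 6 and 7 in ATRXΔRBR, with Adamtsl1, Adamtsl3 and Timp2 in all 4 lists. Those counts were 20% and 12%, then 12% and 14.0%, of the family, beside 9.35% and 5.64%, then 6.21% and 5.72%, of protein-coding genes, without regard to gene length. No member gained or lost body ATRX in both lists, against 0.141% and 0.433% of protein-coding genes.

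EZH2 lay in the bodies of 14 and 15 members in WT, against 14 and 6 in ATRXΔRBR, and 1 and 3 with the label ATRX KD. Over protein-coding genes the shares were 18.1% and 14.9%, 17.1% and 8.94%, and 3.57% and 4.99%. The last pair of lists stood below WT (exact two-sided permutation p = 0.33, the smallest possible), and 9 members had lost body EZH2 in both lists (8.80% of protein-coding genes did), with no gain (0.405%). Set against genes with body EZH2 in both WT lists, the loss was similar, 69.2% in the family and 67.3% of protein-coding genes. In ATRXΔRBR no member lost or gained it in both lists (1.33% and 0.0501%). Timp3, Mmp2 and Mmp11, which had no EZH2 peak at the GENCODE start in any list, were among those 9, and an EZH2 body peak of Mmp11 in WT replicate 1 reached into its RefSeq promoter. H3K27me3 lay in the bodies of 10 and 10 members in WT, against 8 and 8 in ATRXΔRBR and 6 and 4 with the label ATRX KD. Over protein-coding genes these shares were 12% and 12.7%, 14.7% and 13.3%, and 5.97% and 5.55%. In ATRXΔRBR it was lost from Adamts8, Adamts20, Adamtsl2, Mmp9 and Mmp17 (2.62% of protein-coding genes) and gained in Mmp7, Mmp20 and Mmp24 (4.05%). With the label ATRX KD it was lost from Adamts8, Adamts13, Adamts20, Adamtsl2 and Mmp17 (5.77%) and gained in none (0.793%). Set against genes with body H3K27me3 in both WT lists, the family lost it at 55.6% in each comparison. Of such protein-coding genes 24.7% lost it in ATRXΔRBR and 54.3% with the label ATRX KD.

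The pathway around these enzymes was read in 65 further genes, for activation, other inhibitors, other matrix proteases, substrates and inducers. In ATRXΔRBR 45 were tested, 3 rose and 11 fell, with a median log2 fold change of -0.20, where 6.85% of all genes passed. With the label ATRX KD 46 were tested, 15 rose and 15 fell, with a median of -0.05, where 33.0% of all genes passed. Among activators Plau, the urokinase that makes plasmin, which in turn activates pro-MMPs, was at 64.6 and 67.6 TPM in WT, against 63.6 and 64.7 in ATRXΔRBR and 179 and 179 with the label ATRX KD. Only the last pair was high (log2 fold change 1.21 ± 0.12, edgeR adjusted p = 0.000623). Its receptor Plaur fell by 0.89 (SE 0.17, edgeR adjusted p = 0.00771) in the same libraries.

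Of inhibitors outside the TIMP family, Reck, a membrane-anchored inhibitor of MMP14, MMP2 and MMP9, was at 10.2 and 8.49 TPM with the label ATRX KD against 2.94 and 3.43 in WT. It rose together with Mmp14 there, by 1.34 ± 0.18 (edgeR adjusted p = 0.00236).

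Among other matrix proteases Adam19, a membrane-bound sheddase, was at 1.91 and 3.55 TPM in WT, against 0.120 and 0.0700 in ATRXΔRBR and 9.40 and 9.55 with the label ATRX KD. The 3 groups were apart, with log2 fold changes of -5.04 ± 0.49 and 1.57 ± 0.24 (edgeR adjusted p = 0.00104 and 0.00373). Adam12 had the same order (-1.51 ± 0.30 and 1.56 ± 0.20), and Adam8 rose in ATRXΔRBR alone of the 2 tests (2.76 ± 0.24, edgeR adjusted p = 0.000747). Of the substrates, versican (Vcan), cut by Adamts1, Adamts5 and Adamts9, was at 9.04 and 15.7 TPM in WT and 0.75 and 0.27 with the label ATRX KD. It fell by 6.04 on the log2 count scale (SE 0.45, edgeR adjusted p = 0.000266). Fibrillin 1 (Fbn1), to which ADAMTS10 and ADAMTS-like proteins bind, rose in both comparisons, by 0.99 ± 0.24 (edgeR adjusted p = 0.0461) and 2.14 ± 0.13 (edgeR adjusted p = 0.000140). Fibrillin 2 (Fbn2) fell in both, from 78 and 83 counts in WT to 0 and 1 in ATRXΔRBR and 0 and 0 with the label ATRX KD (edgeR adjusted p = 0.000808 and 0.000523). Of 12 tested substrates and partners 1 rose and 3 fell in ATRXΔRBR, and 4 rose and 5 fell with the label ATRX KD. Over all genes 6.85% and 33.0% passed. Of the genes for AP-1 proteins, which bind sites like those in the cluster, Fos, Fosl2 and Junb fell in ATRXΔRBR, by 1.10, 0.78 and 0.96 (SE 0.23, 0.17 and 0.23), while Jun and Fosl1 did not pass, at -0.26 and -0.19. With the label ATRX KD, Jun rose (0.52, edgeR adjusted p = 0.0354), Fosl1 and Junb fell by 0.79 and 1.42, and Fos and Fosl2 did not pass, at -0.13 and -0.19.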

How the data were processed

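RNA-Seq (6 libraries) and CUT&RUN peak lists (16) of MEFs were analysed, and 4 IgG libraries were not analysed here. RNA was polyA-selected and prepared with a directional kit. The authors aligned reads with STAR and deposited RSEM estimated counts and TPM for 53801 gene identifiers, and the annotation and strand setting are not given in the sources used here. For CUT&RUN the authors mapped reads to mm10 with Bowtie2 and called broad peaks in each library with MACS2. The deposited lists give fold enrichment, a ratio to local background, and −log10 p and q values, and the deposited score column was not used. Whether IgG served as control is not given. Bowtie2, MACS2, STAR and mm10 are also named in the submitters' processing notes.

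Estimated counts were rounded. Genes with more than 10 counts over the libraries of a comparison were fitted with edgeR 4.0.16 (R 4.3.3) quasi-likelihood tests after TMM scaling, without a block, using the libraries of the groups compared, and Benjamini-Hochberg adjusted p under 0.05 was called. Errors of log2 fold changes are SE, and n is 2 libraries per group. On simulated counts the test was checked for recovery of known changes. CPM are counts scaled by TMM. A gene had a TSS peak if a peak overlapped the 2 kb on either side of its GENCODE M21 start by 1 bp, and a body peak if a peak in the gene did not. Peak numbers per list were compared by exact two-sided permutation tests. Promoters came from a RefSeq table of GRCm38.p6.

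Genes named were those called in any RNA comparison, the 10 highest in WT TPM, all Timp genes, genes whose TSS peaks changed in both lists, and the chromosome 9 cluster. Members and gene lists were chosen with earlier results of these data known. The share of whole genes under H3K27me3, its flanks, and Adamts12 and Adamtsl1 as examples were chosen after values were seen. Alternatives were DESeq2 1.42.0, its size factors in edgeR, other count filters, all 6 libraries in 1 fit, a replicate block, a fold minimum, log2(TPM + 1) or log2(TPM + 0.1) with limma 3.58.1, leaving out each library, and, for peaks, a 1 kb window, q of 0.01 or less, peak midpoints, any transcript start, and overlap by 50% of the peak. Replicates differed by more than sampling noise in all groups. Some items are not reported here.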

Additional observations from a re-analysis of the deposited data

How the results depend on the processing

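The direction of all 39 called gene changes held under every alternative in which the gene was tested. On the TPM scale 1 member passed in ATRXΔRBR, 0 higher and 1 lower, with either pseudocount, where 2.96% and 3.12% of all genes passed. Against WT, the libraries labelled ATRX KD gave 11 calls at pseudocount 1, with 4 lower, and 10 calls at 0.1, with 3 lower. Of all genes 24.5% and 23.5% passed there. Against ATRXΔRBR they gave 4 lower calls with either, where 27.1% and 26.2% of all genes passed in either direction. On that scale Mmp11 in ATRXΔRBR turned to -0.0066, Mmp15 with the label ATRX KD to 0.069 and 0.13, and, between the altered groups, Timp1 to 0.050 and Timp3 to 0.036, none of them called. The median of all genes moved from -0.02 to 0.17 and, against ATRXΔRBR, from -0.01 to 0.14, where the share of calls that were higher went from 46.8% to 61.1%. A minimum log2 fold change of 1 left 1 higher call in ATRXΔRBR. It left 9 calls with the label ATRX KD, of which 4 were lower, and 10 against ATRXΔRBR, of which 4 were higher. Of all genes 5.62%, 14.9% and 15.8% passed under that minimum in these comparisons. At least 10 counts in every library left 3 lower calls in ATRXΔRBR and 5 lower between the altered groups, and moved the higher share of all ATRXΔRBR calls from 40.7% to 52.8%. With no filter the median of all genes with the label ATRX KD was -0.13. DESeq2 gave 5 lower calls between the altered groups. The cause of these moves was not tested, apart from fewer genes being tested under stricter filters.

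Replicate numbers did not pair the libraries, since same-numbered deviations correlated at -0.53 between WT and ATRXΔRBR, -0.07 between WT and ATRX KD and 0.09 between the altered groups. With the replicate block 6 members passed in ATRXΔRBR, 1 of them higher, 15 with the label ATRX KD and 19 between the altered groups. Of all genes 6.56%, 34.5% and 41.0% passed with that block. A crossed pairing, added after the data were seen, gave 17 calls in ATRXΔRBR, 7 higher and 10 lower, where 34.2% of all genes passed.

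Leaving out 1 library gave 5 to 8 calls in ATRXΔRBR (1 to 3 higher, 4 to 6 lower), 10 to 20 with the label ATRX KD (6 to 8 higher, 4 to 12 lower; the lowest without replicate 1 of that label, and 11 without replicate 2), and 13 to 19 between the altered groups. Uncalled values crossed 0 for Mmp14 (-0.033 to 0.30) and Mmp16 (-0.070 to 0.59) in ATRXΔRBR, Mmp15 (-0.28 to 0.052) and Mmp28 (-0.36 to 0.042) with the label ATRX KD, and Timp1 (-0.40 to 0.14) and Timp3 (-0.30 to 0.027) between the altered groups. The ATRXΔRBR difference in members with ATRX ranged from -2.5 to 1.5 at starts and -3.5 to 0.5 in bodies, and was 1.5 in bodies at q of 0.01 or less. For EZH2 at starts it ranged from -9.0 to 1.0, the highest without ATRXΔRBR replicate 2.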
